A study of Mus musculus with 8 samples.

Results

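The comparison set all FDG-high against all FDG-low mouse mammary cells, with genotype as an additive factor, and asked which genes differed between the gates in the same direction in both genotypes. It used all 8 samples of the series, 4 per gate. The Axl protein is a cell-surface tyrosine kinase receptor, bound by the ligand Gas6. In these B6.129P2-Axltm1Dgen mice the LacZ reporter sits in the Axl locus, so FDG, a beta-galactosidase substrate that becomes fluorescent when cleaved, sorts cells by the activity of that locus.

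Both gates were taken from Axl+/LacZ (heterozygous) glands and from AxlLacZ/LacZ (homozygous, without intact Axl) glands, which gave 4 groups of 2 arrays. All animals were nulliparous females of 16 weeks and all carried the reporter, so there was no wild-type control. The FDG-high gate took the highest 5% of cells and the FDG-low gate the lowest 65%, after viable CD45-, CD31- and CD11b- cells had been selected. Each sample pooled glands of several animals of 1 genotype. Whether replicates are separate pools is not in the labels, and the p-values therefore reflect only the scatter of these samples, part of which may be technical. The gate was set by the reporter, so the level of Axl is not independent of the sort.

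The mammary duct has an inner luminal layer and an outer basal, or myoepithelial, layer. Basal cells carry keratins 5, 14 and 17 and the transcription factor p63, and rest on the basement membrane through hemidesmosomes. They also hold the actin and myosin apparatus of smooth muscle, with which they expel milk. Stroma with fibroblasts, vessels and nerves surrounds the ducts.

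Median deposited intensity ran from 115.7 to 126.7 over the 8 arrays, and 48% to 55.5% of probes were above background, a level of 6.09 to 6.20 on the normalized log2 scale. The targeted gene, Axl, had normalized log2 intensities of 8.89 and 9.13 on the heterozygous FDG-high arrays and 8.45 and 7.98 on the heterozygous FDG-low arrays. It lay at 6.08 and 6.40 (FDG-high) and 6.24 and 6.40 (FDG-low) in homozygous glands, near background, so the arrays matched their genotype labels. Across genes, FDG-high arrays of the different genotypes correlated at 0.968 to 0.973, and FDG-low arrays at 0.880 to 0.895. Ptprc, which encodes CD45, was at 5.83 to 6.12, and Pecam1, which encodes CD31, at 6.28 to 7.33. Cdh1, the epithelial cadherin, was well above background at 9.91 to 10.64 in every sample.

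None of 16593 genes passed an adjusted p of 0.05 for the shared gate difference (limma's moderated test, Benjamini-Hochberg), a percentage called of 0. The smallest adjusted p was 0.401. The unadjusted p was under 0.05 for 1093 genes (6.59% of those tested, against 830 by chance), 558 higher in FDG-high cells (3.36%) and 535 lower (3.22%). Of these, 1090 had the same sign in both genotypes and 3 did not. The additive fit counts a gate difference that depends on genotype as scatter, so genes with opposite signs hardly reach a small p. This split therefore follows in part from the model and supports nothing by itself. The averaged contrast of a fit with a coefficient per group also called 0 genes, with a smallest adjusted p of 0.0895. A test that takes the larger of the p-values of the genotypes called 0 genes as well. At an unadjusted p under 0.05 in each genotype and the same sign, 120 genes remained (0.723%), 70 of them higher (0.422%) and 50 lower (0.301%) in FDG-high cells. All gene differences below are therefore sizes that did not pass the adjusted test.

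The genes with opposite signs outnumbered those with the same sign: 7574 (45.6%) had the same sign in both genotypes, 3431 higher in FDG-high cells (20.7%) and 4143 lower (25%). The signs were opposite for 9019 genes (54.4%). Among the 9597 genes above background in at least 1 group, 42.3% had the same sign. The 4 FDG-high and 4 FDG-low arrays did not overlap for 244 genes that were higher (1.47%) and 316 that were lower (1.9%) in FDG-high cells, 3.37% together. The median gate difference of all genes was -0.01 log2.

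**Figure D1:**
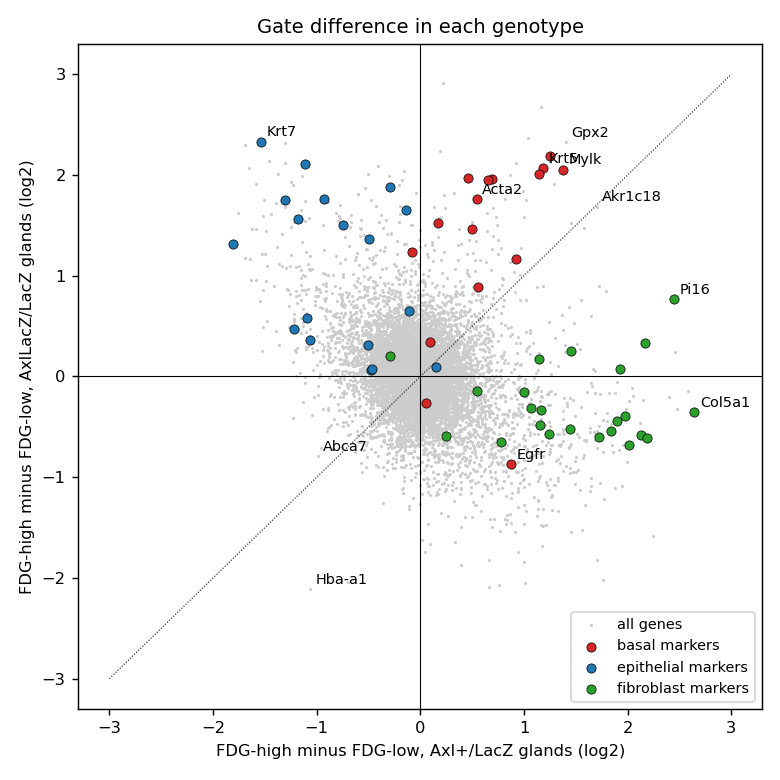
Log2 difference of FDG-high minus FDG-low cells in heterozygous glands (x axis) and homozygous glands (y axis), 1 point per gene, with marker lists coloured. Basal markers lie mostly in the upper right quadrant, with the same sign in both genotypes, whereas 17 of 18 epithelial markers and 18 of 23 fibroblast markers have opposite signs.

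Basal cell markers were the list with the largest share of genes higher in FDG-high cells of both genotypes among the 41 lists examined. Of 16 measured markers, 13 were higher in both genotypes (81.2%, against 20.7% of all genes), 0 were lower in both and 3 had opposite signs. For 11 of the 16 the unadjusted p was under 0.05 in the higher direction (3.36% of all genes), and 4 had gates that did not overlap (1.47%). The median log2 difference was 1.10 (0.60 in heterozygous and 1.64 in homozygous glands), against -0.01 for all genes. None passed the adjusted test.

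Krt5, which encodes keratin 5, had a normalized log2 level of 11.44, 11.17, 11.21 and 10.70 in FDG-high cells, heterozygous samples first. In FDG-low cells it was 10.52 and 9.71 in heterozygous and 9.02 and 8.75 in homozygous glands. The gates did not overlap, and the lowest levels were those of homozygous FDG-low cells. The shared log2 difference was 1.63 ± 0.26 (limma standard error, n = 4 per gate, adjusted p = 0.53), with 1.18 in heterozygous and 2.07 in homozygous glands. Its dimerisation partner Krt14 had a shared log2 difference of 0.98 ± 0.37, with 0.50 in heterozygous and 1.47 in homozygous glands. For Krt17 it was 1.32 ± 0.35, with 0.69 and 1.96. Both overlapped between the gates, because the first heterozygous FDG-low sample was as high as FDG-high samples, with log2 levels of 11.33 for Krt14 and 11.31 for Krt17.

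Trp63, which encodes p63, the transcription factor that maintains basal cells, had log2 levels of 8.98, 8.18, 8.88 and 8.48 in FDG-high cells. In FDG-low cells its levels were 8.50 and 7.35 in heterozygous glands and 6.64 and 6.81 in homozygous glands. The gates overlapped through the same heterozygous FDG-low sample. The shared log2 difference was 1.30 ± 0.37 (adjusted p = 0.59), with 0.66 in heterozygous and 1.95 in homozygous glands. Nrg1, a ligand of the ErbB receptors, had gates that did not overlap, with log2 levels of 7.52 to 8.59 in FDG-high and 6.58 to 7.42 in FDG-low cells and a log2 difference of 1.05 ± 0.26. The basal cadherin gene Cdh3 had a log2 difference of 0.72 ± 0.24.

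The 3 basal markers with opposite signs were Egfr, Itga6 and Cnn1. Egfr, the epidermal growth factor receptor, had a log2 gate difference of 0.87 in heterozygous and -0.87 in homozygous glands. Itga6, the integrin alpha 6 chain, was at -0.08 and 1.23, and its gate-by-genotype interaction passed the test (adjusted p = 0.049). Cnn1, which encodes calponin, was near background, with log2 levels of 5.98 to 6.56.

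**Figure D2:**
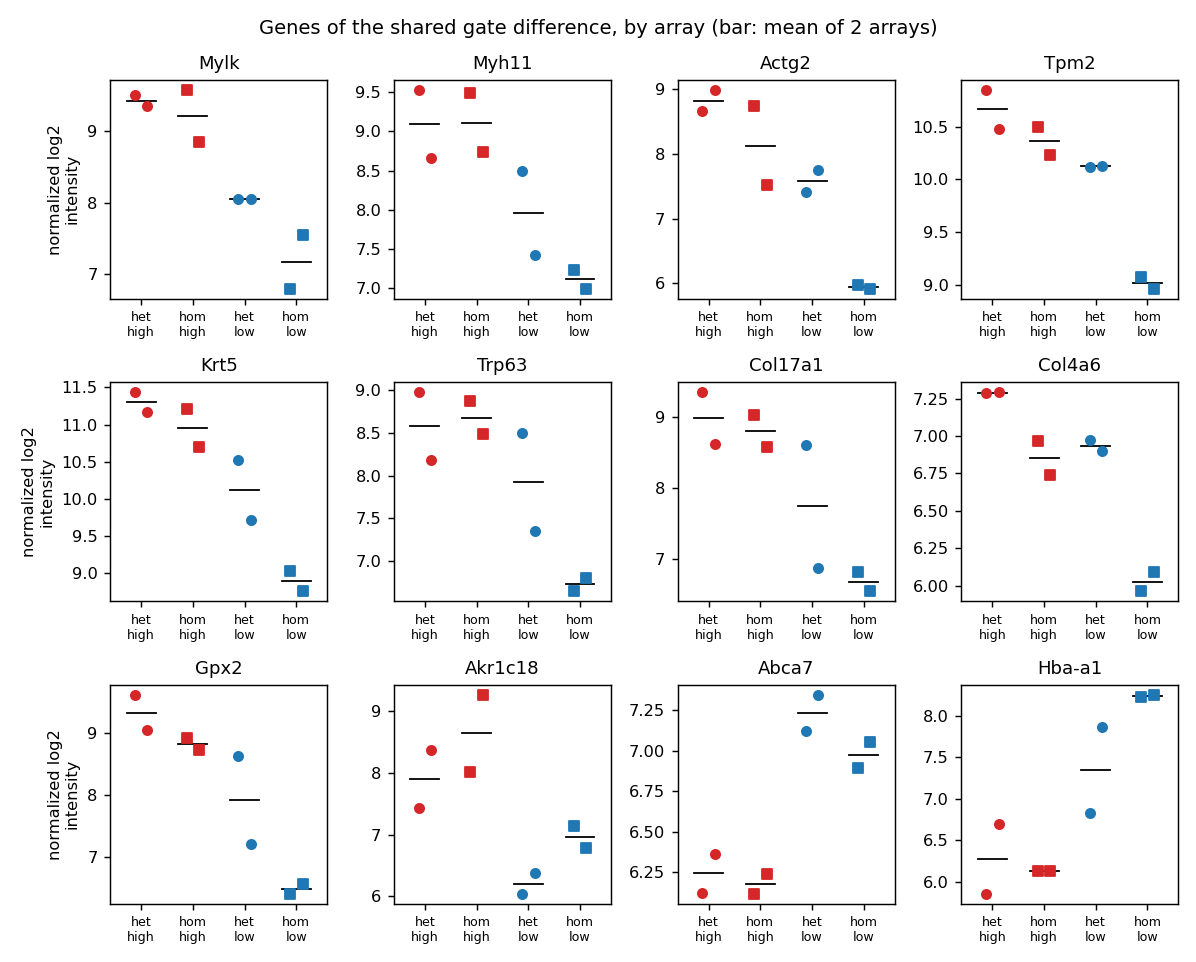
Normalized log2 intensity of 12 genes on each array, by group (het, heterozygous; hom, homozygous; high and low, the FDG gates), with bars at the mean of 2 arrays. The means of both FDG-high groups lie above those of both FDG-low groups for every gene from Mylk to Akr1c18 except Col4a6, whose heterozygous FDG-low mean is just above the homozygous FDG-high mean, while Abca7 and Hba-a1 run the other way.

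The contractile genes were examined through a list of 24 smooth muscle genes drawn up after their values had been seen, so their count supports nothing by itself. Of the 24, 14 were higher in FDG-high cells of both genotypes (58.3%, against 20.7% of all genes), 1 was lower and 9 had opposite signs. The unadjusted p was under 0.05 for 11, all higher (3.36% of all genes), and 6 had gates that did not overlap (1.47%). The median log2 difference was 0.31. Of the 9 with opposite signs, 7 were higher in FDG-high cells of heterozygous glands and 2 in those of homozygous glands. In heterozygous and homozygous glands, Csrp2 had log2 differences of 1.52 and -0.93, and Csrp1 of -0.36 and 1.47. Tagln, counted as higher, had only 0.09 and 0.34 (unadjusted p of the shared difference 0.19).

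Mylk, the myosin light chain kinase that starts smooth muscle contraction, was the leading gene. Its log2 levels were 9.51, 9.35, 9.58 and 8.86 in FDG-high cells, 8.05 on both heterozygous FDG-low arrays, and 6.79 and 7.54 in homozygous FDG-low cells. Every FDG-high sample was above every FDG-low sample. The shared log2 difference was 1.71 ± 0.24 (adjusted p = 0.52), 1.38 ± 0.31 in heterozygous and 2.05 ± 0.31 in homozygous glands, and a second Mylk probe gave 1.47. Myh11, the smooth muscle myosin heavy chain, had log2 levels of 9.53, 8.66, 9.49 and 8.74 in FDG-high cells and of 8.49, 7.42, 7.23 and 6.99 in FDG-low cells. Its gates did not overlap either, and the log2 difference was 1.57 ± 0.35.

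Among the actins, Actg2 (smooth muscle gamma actin) had log2 levels of 8.66 and 8.997 in heterozygous and 8.74 and 7.52 in homozygous FDG-high cells and 7.42, 7.75, 5.97 and 5.91 in FDG-low cells. The homozygous FDG-low level was below background. The gates overlapped by 1 homozygous FDG-high sample, and the log2 difference was 1.72 ± 0.31. Acta2, smooth muscle alpha actin, was bright in every sample, at log2 levels of 11.67 to 12.21 in FDG-high cells and 11.79, 11.47, 9.90 and 10.13 in FDG-low cells. Its log2 difference was 1.15 ± 0.25, with 0.54 in heterozygous and 1.76 in homozygous glands, and its 3 other probes gave 1.08, 1.08 and 1.49. Actin genes are close in sequence, and cross-hybridisation between their probes was not tested.

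The tropomyosins, which coil along actin filaments, had smaller differences: 0.94 ± 0.18 for Tpm2 and 0.51 ± 0.10 for Tpm1 on the log2 scale, both without overlap of the gates. The 2 other Tpm2 probes, dimmer, gave 0.08 each and had opposite signs in the genotypes. In heterozygous and homozygous glands they gave -0.07 and 0.23, and -0.42 and 0.58. The same sign of Tpm2 thus holds only for the brightest probe. Pdlim3, an actin-associated PDZ and LIM domain protein, had a log2 difference of 0.69 ± 0.13 and Lmod1, the smooth muscle leiomodin, one of 0.87 ± 0.24. Srf, the serum response factor that drives contractile genes, was the 1 list member lower in FDG-high cells of both genotypes. Its log2 levels were 10.77 to 11.25 in FDG-high and 11.17 to 11.34 in FDG-low cells, and its difference of -0.24 ± 0.11 had an unadjusted p of 0.06.

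Serum response factor binds the CArG box, a 10-base element of CC, 6 bases of A or T, and GG, which reads the same way on both strands. The 250 bases before the annotated starts of the contractile genes were searched for it (RefSeq, GRCm38.p6). Of the 24 listed genes, 19 were in the promoter table, with 22 windows. Actg2 and Myh11 had no entry there. Of the 22 windows, 3 held the exact element (13.6%), against 1.47% of all 32851 promoter windows. Serum response factor drives contractile genes, so a larger share can follow from the choice of the list and supports nothing about the gates. Of the 14 contractile genes higher in both genotypes, 11 matched the promoter table, with 12 windows. The exact element was in 1 of these 12 (8.33%), a smaller share than in the whole list. The window of Actc1 held it, 47 bases before the start. With 1 base other than A or T allowed in the core, a setting chosen after the exact search, it was in 6 of the 22 windows of the list (27.3%) and in 8.59% of all windows. Of the 12 windows, 4 held it (33.3%), those of Acta2, Actc1, Pdlim3 and Synm. The windows of Acta2, Pdlim3 and Synm are shown with the matches in capitals, beside that of Mylk, the leading gene, which held none. That of Actc1 is not shown. Synm had a log2 gate difference of 0.54 by the probe used, but its other probes gave 0.06 and -0.04. Acta2 held its matches 84 and 34 bases before the start, Pdlim3 100 and Synm 239 bases before it.
Acta2 (chr19:34255374-34255623, minus strand): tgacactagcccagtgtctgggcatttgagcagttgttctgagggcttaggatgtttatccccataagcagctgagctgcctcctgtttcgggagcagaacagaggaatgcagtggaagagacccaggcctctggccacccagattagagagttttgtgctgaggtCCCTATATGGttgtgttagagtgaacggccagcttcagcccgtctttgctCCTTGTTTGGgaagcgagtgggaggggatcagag
Pdlim3 (chr8:45885237-45885486, plus strand): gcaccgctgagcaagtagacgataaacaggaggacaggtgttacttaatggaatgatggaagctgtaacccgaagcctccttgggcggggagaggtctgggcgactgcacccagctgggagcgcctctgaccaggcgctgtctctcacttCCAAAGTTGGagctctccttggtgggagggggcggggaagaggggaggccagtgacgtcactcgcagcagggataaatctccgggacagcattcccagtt
Synm (chr7:67759743-67759992, minus strand): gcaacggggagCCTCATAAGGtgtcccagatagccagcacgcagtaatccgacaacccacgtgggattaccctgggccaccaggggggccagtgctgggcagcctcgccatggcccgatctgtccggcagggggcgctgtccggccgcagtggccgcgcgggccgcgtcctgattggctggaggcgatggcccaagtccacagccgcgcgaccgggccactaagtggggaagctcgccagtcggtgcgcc
Mylk (chr16:34784700-34784949, plus strand): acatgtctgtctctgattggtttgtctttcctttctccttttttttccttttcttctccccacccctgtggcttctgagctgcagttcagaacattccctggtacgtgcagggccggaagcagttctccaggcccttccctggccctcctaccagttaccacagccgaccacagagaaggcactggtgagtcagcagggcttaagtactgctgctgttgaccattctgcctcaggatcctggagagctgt
A match of letters is a description of these windows and no measurement of binding.

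Genes of the hemidesmosome and basement membrane were also listed after their values were seen. Of 21 members, 9 were higher in FDG-high cells of both genotypes (42.9%, against 20.7% of all genes), 0 lower and 12 of opposite sign. Of the 12, 9 were higher in FDG-high cells of heterozygous glands and 3 in those of homozygous glands. The unadjusted p was under 0.05 for 3, all higher (3.36% of all genes), and 0 had gates that did not overlap (3.37%). Col17a1, the transmembrane collagen of the hemidesmosome, had log2 levels of 9.35, 8.61, 9.02 and 8.58 in FDG-high cells and 8.60, 6.87, 6.81 and 6.54 in FDG-low cells. The gates overlapped through the first heterozygous FDG-low sample. Its log2 difference of 1.69 ± 0.41 was 2.12 without that sample. Col4a6, an epithelial basement membrane collagen chain, had log2 differences of 0.35 in heterozygous and 0.83 in homozygous glands. Other collagen IV chains had opposite signs, with 1.45 and -0.52 for Col4a1 and 1.25 and -0.73 for Col4a2. So did Nid1 (1.95 and -0.68) and Nid2 (1.10 and -1.20). Lamb3, a laminin chain of the hemidesmosome, had a log2 difference of 1.21 ± 0.43, with 0.46 in heterozygous and 1.96 in homozygous glands. Itgb4, the integrin beta 4 chain, had one of 0.84 ± 0.44, with 0.17 and 1.52. A second Itgb4 probe gave 0.79 and 1.25. For both genes the difference thus lay mostly in homozygous glands by the probes used.

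Other cell types' markers moved with the gates in a way that differed between genotypes. Epithelial markers were higher in FDG-low cells of heterozygous glands and in FDG-high cells of homozygous glands for 17 of 18 genes, and the remaining gene was Cdh1. Their summed linear level was 8606 to 8607 and 7126 to 10284 in heterozygous and homozygous FDG-high cells, but 14019 to 15342 and 3720 to 3725 in the FDG-low cells. Fibroblast markers ran the other way for 17 of 23 genes, with summed levels of 16270 to 28834 and 18916 to 24258 in FDG-high cells and of 4700 to 10787 and 24243 to 25001 in FDG-low cells. Basal markers summed to 14976 to 18147 and 12186 to 16281 in FDG-high cells and to 8002 to 13204 and 5082 to 5103 in FDG-low cells. For the epithelial and fibroblast lists the homozygous FDG-low samples were thus at the opposite end from the heterozygous ones. For the basal list the mean log2 levels of the FDG-low groups (8.38 heterozygous, 7.49 homozygous) were below those of the FDG-high groups (9.03 and 8.83). The samples of the gates overlapped, with the first heterozygous FDG-low sample (13204) above the second homozygous FDG-high sample (12186). In sorted bulk samples, fewer cells of a type and less RNA per cell cannot be told apart. The part of epithelial and stromal content in the basal difference was not tested.

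**Figure D3:**
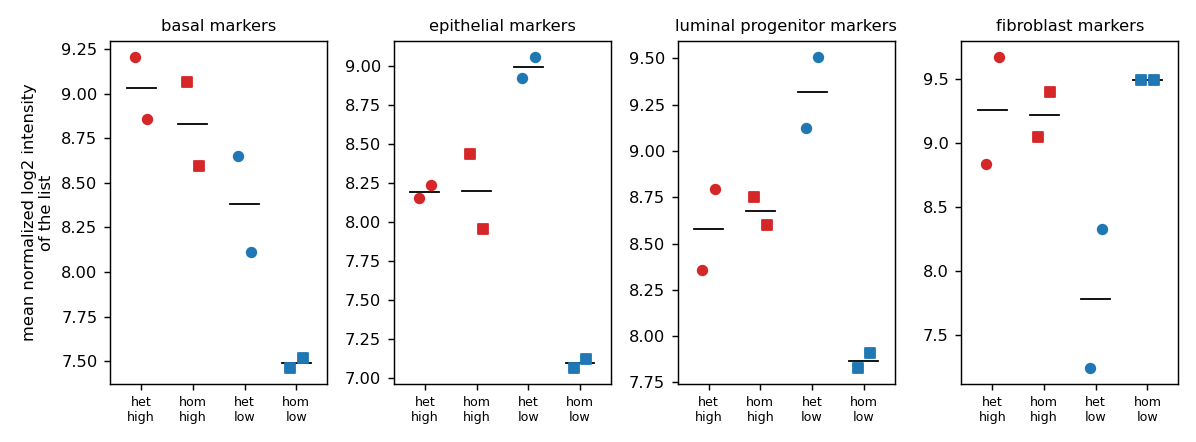
Mean normalized log2 intensity of the basal, epithelial, luminal progenitor and fibroblast marker lists on each array, by group (het, heterozygous; hom, homozygous; bars, mean of 2 arrays). The means of the FDG-high groups lie between those of the FDG-low groups for epithelial, luminal progenitor and fibroblast markers, and above both FDG-low groups for basal markers.

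Mural cells of vessels share contractile genes with myoepithelium. Of 11 pericyte markers, 1 was higher in FDG-high cells of both genotypes (9.09%, against 20.7% of all genes). In both genotypes 2 were lower (18.2%, against 25%), and 8 had opposite signs (72.7%, against 54.4%). The count of 1 higher marker became 6 without the first homozygous FDG-high array, 4 without the second homozygous FDG-low array and 2 with median centring or array weights. The summed linear level was 1439 to 1882 and 1353 to 1815 in heterozygous and homozygous FDG-high cells, against 1173 to 1295 and 1441 to 1523 in FDG-low cells. The shared gene was Rgs5, a regulator of G protein signalling enriched in pericytes, with log2 levels of 8.48, 9.44, 8.36 and 8.80 in FDG-high and 6.56, 7.91, 7.80 and 7.58 in FDG-low cells and a log2 difference of 1.31 ± 0.36. The part of mural cells in the contractile difference was not tested.

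Secreted signals were among the genes with the same sign. Of 23 Wnt pathway genes, 6 were higher in FDG-high cells of both genotypes, 3 lower and 14 of opposite sign, shares of 26.1% and 13% against 20.7% and 25% of all genes. Wnt10a, a Wnt ligand, had log2 levels of 6.53 to 7.10 in FDG-high and 5.98 to 6.37 in FDG-low cells, without overlap, and a log2 difference of 0.57 ± 0.12. Wnt5a, the main non-canonical ligand, had a log2 difference of 1.29 ± 0.38 with overlap through the first heterozygous FDG-low sample, at a log2 level of 8.96. Sfrp4, a secreted Frizzled-related Wnt inhibitor, had a log2 difference of 1.15 ± 0.32. Its lowest FDG-high log2 level was 6.90 and its highest FDG-low level 6.88.

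Igfbp3, which binds insulin-like growth factors, had log2 levels of 11.25, 10.79, 10.81 and 10.49 in FDG-high cells and 10.69, 9.96, 9.07 and 8.88 in FDG-low cells. The gates overlapped by 1 sample, and the log2 difference was 1.18 ± 0.26. Ccn2, a matricellular protein known as connective tissue growth factor, was among the brightest genes at log2 levels of 11.47 to 12.24 in FDG-high and 10.95 to 11.71 in FDG-low cells, with a difference of 0.53 ± 0.11. Jag1, a Notch ligand, had a log2 difference of 0.70 ± 0.21, nearly the same in heterozygous (0.73) and homozygous (0.67) glands, without overlap of the gates.

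A further set of genes higher in FDG-high cells encodes enzymes of glutathione and redox metabolism, listed after their values were seen. Of 44 such genes, 21 were higher in both genotypes (47.7%, against 20.7% of all genes), 7 lower (15.9%, against 25%) and 16 of opposite sign. The unadjusted p was under 0.05 for 6 higher genes (3.36% of all genes) and 1 lower gene (3.22%), and 3 higher genes had gates that did not overlap (1.47%). The median log2 difference was 0.21. Gpx2, a glutathione peroxidase of epithelia, had log2 levels of 9.62, 9.04, 8.91 and 8.72 in FDG-high cells and 8.64, 7.21, 6.41 and 6.57 in FDG-low cells. Its log2 difference was 1.87 ± 0.34 (adjusted p = 0.53).

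Akr1c18, the aldo-keto reductase that inactivates progesterone, had the largest smaller-of-2 difference of the genes above background, with 1.70 in heterozygous and 1.69 in homozygous glands on the log2 scale. Its log2 levels were 7.43, 8.38, 8.02 and 9.27 in FDG-high and 6.04, 6.37, 7.14 and 6.78 in FDG-low cells, without overlap. Adh7, an alcohol dehydrogenase that oxidises retinol, was also without overlap, at 7.82 to 8.99 against 6.57 to 7.67 and a log2 difference of 1.32 ± 0.30. The glutathione transferase genes Gsta1, Gsta2 and Gsta4 had log2 differences of 1.92 ± 0.66, 1.60 ± 0.48 and 1.43 ± 0.50. All 3 overlapped between the gates, with the first heterozygous FDG-low sample high, at log2 levels of 8.69, 7.74 and 10.14. The first heterozygous FDG-high sample was also above the second, at 9.82, 9.09 and 10.86 against 7.66, 7.32 and 9.33. Gsta genes are close paralogs whose probes may share signal.

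Opposite signs in the genotypes were about as frequent among proteasome and energy genes as among all genes (54.4%). The shares were 58.3% for proteasome, 57.9% for oxidative phosphorylation and 61.1% for glycolysis and hypoxia genes. Of 36 proteasome genes, 14 were higher in FDG-high cells of both genotypes (38.9% against 20.7% of all genes), 1 was lower and 21 had opposite signs, with a median log2 difference of 0.14. Psmd5, a chaperone of proteasome assembly, had log2 levels of 6.18 to 6.57 in FDG-high and 5.94 to 6.16 in FDG-low cells. Of 76 oxidative phosphorylation genes, 23 were higher (30.3%, against 20.7% of all genes), 9 were lower (11.8%, against 25%) and 44 had opposite signs. Of the 44, 40 were higher in FDG-high cells of homozygous glands and lower in those of heterozygous glands (4539 of 9019 over all genes). Of 18 glycolysis and hypoxia genes, 7 were higher (38.9%, against 20.7% of all genes), 0 lower (against 25%) and 11 of opposite sign. Their median log2 difference was 0.11. Leaving out single heterozygous FDG-high samples moved the proteasome count between 7 and 22.

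The rule for leading genes took same-sign genes whose gates did not overlap, 12 per direction, ranked by limma's statistic. Higher in FDG-high cells were Camk4, Mylk, Ercc4, Vav3, Krt5, Adamts18, Gtf2f2, Pou2af1, Pi15, Pcyox1, Kcnq5 and Epdr1. Camk4, a calcium and calmodulin dependent kinase, and Kcnq5, a voltage-gated potassium channel, were not above background in FDG-low cells, and each was at least 1.07-fold higher in FDG-high cells. Pou2af1, a coactivator of octamer-binding factors known from B cells, had log2 levels of 8.18, 8.55, 8.32 and 7.11 in FDG-high and 7.02, 6.56, 6.14 and 6.35 in FDG-low cells. Its log2 difference was 1.52 ± 0.26, 1.58 in heterozygous and 1.47 in homozygous glands. The pan-leukocyte gene Ptprc was near background in every sample of these CD45- cells. The part of leukocytes in the Pou2af1 difference was not tested.

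Adamts18, a secreted metalloproteinase, had log2 levels of 6.96 to 7.51 in FDG-high and 5.78 to 6.95 in FDG-low cells and a log2 difference of 0.98 ± 0.17. Gtf2f2, a subunit of the general transcription factor TFIIF, had a log2 difference of 0.84 ± 0.14, Epdr1 one of 0.61 ± 0.11 and Pcyox1, the prenylcysteine oxidase, one of 0.55 ± 0.10. Vav3 had 0.56 ± 0.08, but its 2 other probes gave -0.04 and -0.05. Ercc4, a DNA repair endonuclease, had 0.49 ± 0.07, and its other probe gave 0.08. By the size of the smaller difference, Reln, which encodes the secreted glycoprotein reelin, also stood among the first 5, with log2 differences of 1.45 and 1.52 in the genotypes. Its gates overlapped, at 8.33 to 9.85 against 7.18 to 8.69.

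**Figure D4:**
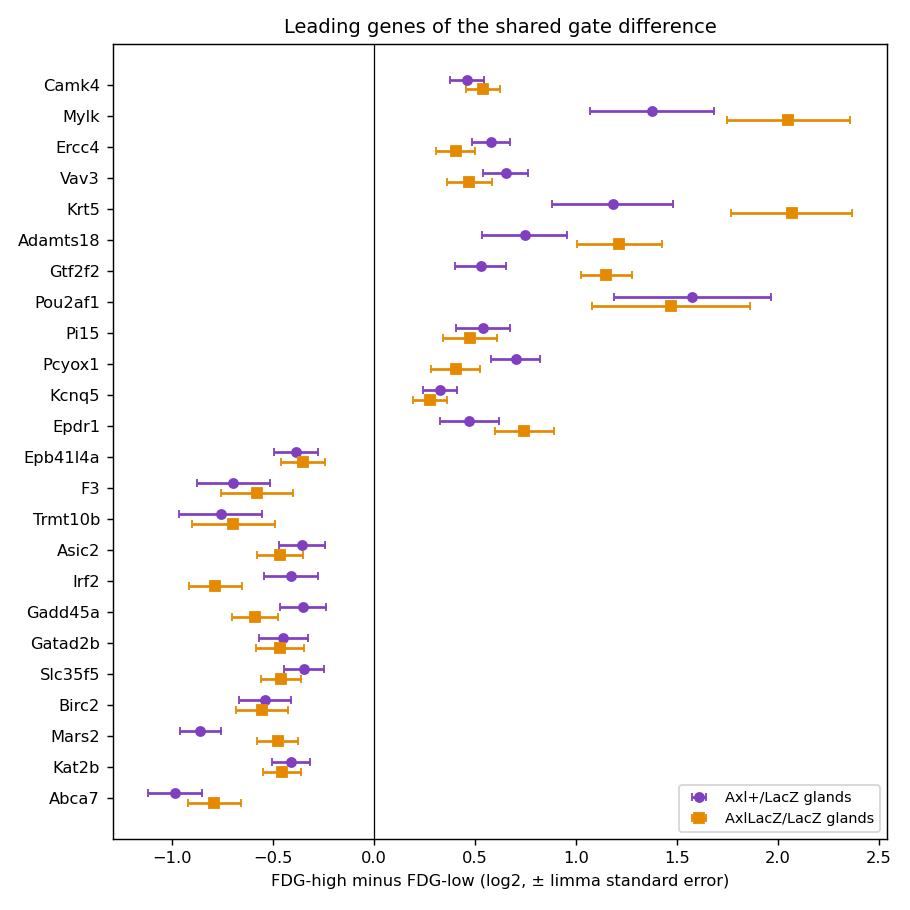
Log2 difference of FDG-high minus FDG-low cells in heterozygous (circles) and homozygous (squares) glands for the 12 leading genes per direction, with limma standard errors (2 arrays per group). Both genotypes lie on the same side of 0 for each gene by the choice of the genes, and Mylk, Krt5 and Pou2af1 have the largest positive values.

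Lower in FDG-high cells were Abca7, Kat2b, Mars2, Birc2, Slc35f5, Gatad2b, Gadd45a, Irf2, Asic2, Trmt10b, F3 and Epb41l4a. Abca7, a lipid transporter, had the smallest unadjusted p of all genes. Its log2 levels were 6.12, 6.36, 6.12 and 6.24 in FDG-high and 7.12, 7.34, 6.89 and 7.05 in FDG-low cells, so the gates were clearly apart, with FDG-high levels near background. The log2 difference was -0.89 ± 0.10 (adjusted p = 0.40), -0.99 in heterozygous and -0.79 in homozygous glands. Its 2 other probes were below background on every array and gave -0.04 and 0.04.

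Birc2, an inhibitor of apoptosis, had log2 levels of 9.65, 9.36, 9.67 and 9.63 in FDG-high and 10.14, 9.95, 10.13 and 10.27 in FDG-low cells. Its 3 probes gave log2 differences of -0.55, -0.44 and -0.78. Gadd45a, a stress-response gene, had a log2 difference of -0.47 ± 0.09 and a second probe at -0.38. Irf2, an interferon regulatory factor, had log2 levels of 7.69 to 7.93 against 8.20 to 8.70 and a difference of -0.60 ± 0.11. F3, tissue factor, which starts coagulation, had 6.91 to 7.44 against 7.82 to 7.95 and a log2 difference of -0.64 ± 0.12. Kat2b, an acetyltransferase, had a log2 difference of -0.44 ± 0.06, and Gatad2b, a subunit of the NuRD complex, one of -0.46 ± 0.08. By the size of the smaller difference, Fzr1, an activator of the anaphase-promoting complex, and Hnrnpul1, an RNA-binding protein, also stood among the first 5 lower genes, with log2 differences of -0.79 ± 0.23 and -0.83 ± 0.38. Both overlapped between the gates. The Hnrnpul1 levels of the heterozygous FDG-high samples were far apart, at 7.93 and 6.25, and its difference was -0.47 without the lower one. It ran from -1.02 to -0.10 with single arrays left out. The brightest probe was chosen anew in each of these runs, so the range may include a change of probe. A second Fzr1 probe, above background on every array, gave -0.08, and 3 other such Hnrnpul1 probes gave -0.08 to -0.14.

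Adult globins were lower in level in FDG-high cells of both genotypes. Hba-a1, an alpha globin, had log2 levels of 5.85, 6.70, 6.12 and 6.13 in FDG-high cells and 6.83, 7.86, 8.22 and 8.26 in FDG-low cells. The gates did not overlap and the log2 difference was -1.59 ± 0.32 (adjusted p = 0.53). Hbb-bt, a beta globin, had a log2 difference of -1.37 ± 0.29, with 1 of 4 FDG-high arrays above background. Hbb-b2 was not above background in FDG-high cells and was at least 1.50-fold lower there. Of 9 erythrocyte markers, 5 were lower in FDG-high cells of both genotypes (55.6%, against 25% of all genes), 0 higher and 4 of opposite sign. Only 4 of the 9 were above background in any group. The summed linear level of the 9 was 528 to 608.6 and 558.2 to 573.4 in FDG-high cells and 689 to 829.3 and 1067.5 to 1086.4 in FDG-low cells. The part of red cell RNA in this difference was not tested, and globin probes may share signal.

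Of 16 endothelial markers, 6 were lower in FDG-high cells of both genotypes (37.5%, against 25% of all genes), 3 were higher and 7 had opposite signs. Their summed linear level was 1440 to 1474 and 1244 to 1948 in heterozygous and homozygous FDG-high cells and 1578 to 1658 and 1650 to 1704 in FDG-low cells, so the gates overlapped. Egfl7, a secreted endothelial protein, had log2 levels of 6.07 to 6.32 in FDG-high and 6.41 to 6.93 in FDG-low cells and a log2 difference of -0.49 ± 0.13.

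**Figure D5:**
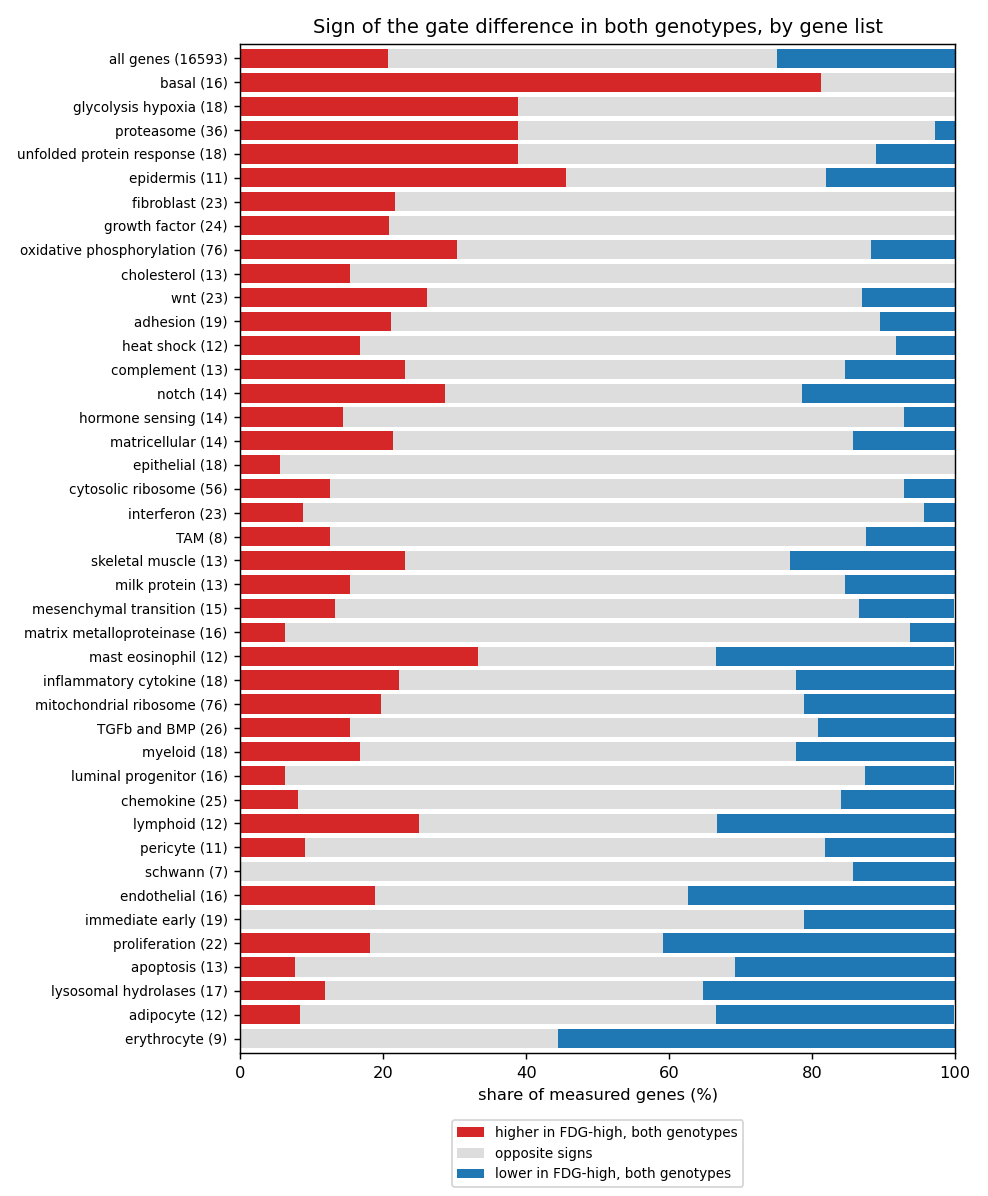
Share of the measured genes of each list (percent, number of genes in brackets) that were higher in FDG-high cells of both genotypes, of opposite sign, or lower in both. Among the 41 lists drawn, basal markers have the largest share higher in both (81.2%), against 20.7% of all genes, and erythrocyte markers the largest share lower in both (55.6%), against 25%.

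Within single genotypes, 65 genes passed the adjusted test in homozygous glands (0.392%) and 1 in heterozygous glands (0.00603%). Of the 65, 15 had the same sign in heterozygous glands by the probes used. They were Acta2, Col4a6, Ephb1, Gal, Gtf2f2, Hbb-b2, Hbb-bt, Krt23, Mrps18c, Perp, Sft2d2, Tfap2b, Tmem131, Tpm2 and Zbtb46. The 1 heterozygous gene had the opposite sign in homozygous glands. The gate difference itself differed between genotypes for 135 genes (0.814%, interaction, adjusted p under 0.05). None of the 12 leading genes per direction was among them, but the rule that chose the leading genes disfavours large interactions. Krt7, a luminal keratin, was among the 135, with log2 differences of -1.54 in heterozygous and 2.33 in homozygous glands (interaction adjusted p = 0.024).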

How the data were processed

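RNA of 8 samples was measured on Illumina mouse bead arrays, in 4 groups of 2 taken from the sample titles. All arrays were on 1 chip. The deposited values are linear probe intensities for 25697 probes, per the value table itself, although the design text speaks of log2 quantile normalized values. The treatment of beads and background was not given in the sources used here, so the intensities were processed anew. limma 3.58.1 in R 4.3.3 was used for normexp background correction (offset 50), quantile normalization and log2 transformation. The offset understates differences of dim genes, and the number of arrays limits the precision.

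Names came from the platform annotation table, where 23978 probes had 1 gene symbol, 0 several and 1719 none. The probe brightest on average stood for each of 16593 genes. An array's background was taken from 1323 probes of chemosensory receptor genes (olfactory, vomeronasal, trace amine), as their 95th percentile. A difference against a gate below background on all its arrays is given as at least N-fold, the bright gate's mean over that of the dim arrays, each set to its lowest above-background value unless the probe itself was brighter.

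The main model held genotype and gate as additive factors (5 residual and 2 prior degrees of freedom). Differences within a genotype and the interaction came from a fit with a coefficient per group (4 residual and 2.4 prior). Moderated two-sided tests were used, with Benjamini-Hochberg adjustment across the 16593 genes (threshold 0.05). The code was tested on simulated data. The sample titles number the replicates within each group and state no pairing, so the main model did not pair samples by replicate number.

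The members and the 41 gene lists were chosen with earlier results of these data known, and 4 more lists (contractile, hemidesmosome, redox, globin) after the values were seen. Genes were named by rule: 12 per direction past the threshold or, failing that, with the largest moderated statistic among same-sign genes above background in a group whose gates did not overlap; the 5 per direction with the largest smaller-of-2 difference; up to 3 same-sign members of each list; and up to 2 opposite-sign members of 4 cell type lists. The text describes those of the lists it treats. Members of the 4 later lists, the sort markers and Axl were named outside this rule. The 8 TAM genes, a list the rule also names, had 1 higher, 1 lower and 6 of opposite sign. Alternatives were other background corrections, scaling, probe summaries, filters, variance models, replicate blocks, single genotypes and leaving out each array. With an array left out, the brightest probe of each gene was chosen anew.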

Additional observations from a re-analysis of the deposited data

Results flagged for a closer look

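In each gate of 4 samples, the gap of the highest or lowest sample to its neighbour was set against the whole range, with Dixon's 95% critical value as the limit. Chance passes this limit in about 1 of 20 gates. Of 184 gates checked, 10 passed. Among FDG-high samples these were Lmod1 (0.862), Birc2 (0.875), Epb41l4a (0.906), Cdh1 (0.925) and Pecam1 (0.832). Among FDG-low samples they were Synm (0.914), Col17a1 (0.841), Pi15 (0.89), Gsta2 (0.93) and Wnt5a (0.912). The first heterozygous FDG-low sample was the high one for Synm, Col17a1, Gsta2 and Wnt5a. For each of these genes, the first heterozygous FDG-high sample was also above the second.

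The gate difference differed between genotypes for Itga6, Krt7, Krt23, Mrps18c and Tfap2b, by the interaction term. Homozygous minus heterozygous, the log2 difference of the gate differences was 1.31 for Itga6, 3.87 for Krt7, 2.7 for Krt23, 1.0 for Mrps18c and 2.05 for Tfap2b. Krt23, Mrps18c and Tfap2b had the same sign in both genotypes by the probes used. For Mrps18c the heterozygous difference was only 0.02 ± 0.10. Other Tfap2b probes gave -0.04 and 1.00, -0.14 and 1.00, and 0.59 and 1.24 in heterozygous and homozygous glands.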

How the results depend on the processing

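No gene passed the adjusted test for the shared gate difference, or in both genotypes at once, under any alternative run. The smallest adjusted p for the shared difference was 0.0895 with the averaged contrast. It was 0.534 with a replicate block within genotype and 0.237 with a block common to both genotypes, and the block changed no call. In homozygous arrays alone the smallest adjusted p was 0.0525, but that run tests the gate difference within 1 genotype and not the shared one. Replicate deviations correlated at 0.397 in heterozygous and 0.011 in homozygous glands. The count of the gate by genotype interaction, 135, depended on the setting. It was 206 with the replicate block within genotype, 257 with an offset of 16, 258 among genes above background on at least 2 arrays, 321 among those above the median brightness and 277 with an intensity trend. With 1 array left out it ran from 0 to 329. Dropping a homozygous FDG-low array gave 0, a heterozygous FDG-low array 1, and replicate 2 of the heterozygous FDG-high cells 13. Dropping replicate 1 of the homozygous FDG-high cells gave 44, and replicate 2 gave 329. The 15 same-sign genes called in homozygous glands numbered 10 to 48 under the other settings and 0 to 21 with 1 array left out. The cause was not tested. The share of genes with the same sign ran from 41.7% to 48.1%. The basal median stayed between 0.82 and 1.36 log2, and 11 to 13 of its genes were higher in both genotypes. The contractile median ran from 0.22 to 0.57, the proteasome count from 7 to 22 and the oxidative phosphorylation count from 16 to 34. Among the same-sign genes checked, Pecam1 changed sign, to -0.048 with the mean of all probes and -0.085 in heterozygous arrays alone. It ran from -0.156 to 0.255 with 1 array left out. Dim genes near background limit the smallest differences.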
